A study of Mus musculus with 8 samples.

Results

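The class I pathway of antigen presentation was followed through 10 genes in mouse liver: the heavy chain genes H2-K1, H2-D1, H2-Q4, H2-Q6, H2-T23 and H2-Q10, the light chain gene B2m, the peptide transporter genes Tap1 and Tap2, and Tapbp, which encodes tapasin. They were chosen by symbol, and all 10 were found among the 27453 genes of the count tables. The livers came from 8 C57BL/6JN mice, an inbred strain, and their native polyadenylated RNA had been read on nanopores. The O-titled set holds O1 and O2 from males and O3 and O4 from females, and the Y-titled set Y1 and Y2 from males and Y3 and Y4 from females. The labels disagree on age: O-titled animals are entered at 12 weeks and Y-titled ones at 80 weeks, whereas the series describes young animals, near 2 months, and old ones, near 18 months. The libraries are therefore called by title, and no direction with age is given. The study asked how liver RNA differs between young and old mice. No treatment or allele is named in the labels, and each library comes from its own animal.

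A class I molecule is a heavy chain held together with beta-2 microglobulin, the product of B2m, and it carries a short peptide to the cell surface for inspection by CD8 T cells and natural killer cells. The peptides are cut from cytosolic proteins by the proteasome, pumped into the endoplasmic reticulum by the transporter made of the Tap1 and Tap2 products, and loaded with the help of tapasin, which bridges the transporter and the heavy chain. Mice have classical heavy chains, which are highly variable between strains, and nonclassical ones of the Q and T regions. Of the nonclassical genes H2-Q10 is known as a liver gene whose product is secreted, because it lacks a membrane anchor.

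That difference can be read in the fifth exon, which encodes the membrane-spanning stretch. The coding part of this exon is shown for H2-D1, a surface-bound chain, and for H2-Q10, 5′ to 3′ on the coding strand from the mm10 build (H2-D1, chr17:35266187-35266303, plus strand, transcript ENSMUST00000172785; H2-Q10, chr17:35473486-35473589, plus strand, transcript ENSMUST00000068291).
H2-D1 exon 5: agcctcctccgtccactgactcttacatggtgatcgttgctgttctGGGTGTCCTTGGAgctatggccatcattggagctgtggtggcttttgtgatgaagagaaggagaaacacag
H2-Q10 exon 5: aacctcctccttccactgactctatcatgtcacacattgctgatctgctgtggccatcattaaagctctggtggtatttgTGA
The capitals in H2-D1 mark the 13 bases, from base 47 of the exon, that have no counterpart in H2-Q10. The capitals in H2-Q10 mark the stop codon at which its reading frame ends, after 80 coding bases in the exon. The whole exon has 104 bases in H2-Q10 and 117 in H2-D1. Over the whole coding sequence, H2-Q10 and H2-D1 are identical at 89.6% of aligned bases.

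The 250 bases before the start of a gene are shown for the H2-Q6 and H2-Q4 genes, which gave the 2 highest fold changes below, for H2-K1, whose level barely differed, and for H2-Q10, whose pattern ran opposite to the others. The sequences come from RefSeq on build GRCm38.p6, read 5′ to 3′ in the direction of transcription (H2-Q6, chr17:35424600-35424849, plus strand; H2-Q4, chr17:35379367-35379616, plus strand; H2-K1, chr17:34000348-34000597, minus strand; H2-Q10, chr17:35469839-35470088, plus strand). Capitals mark exact matches, on either strand, to 4 short motifs: the kappa B core GGGATTC, the interferon response core GTGAAAC, the CRE half-site TGACG, which the X2 box of class I promoters holds, and the Y box core CCAAT.
H2-Q6 promoter: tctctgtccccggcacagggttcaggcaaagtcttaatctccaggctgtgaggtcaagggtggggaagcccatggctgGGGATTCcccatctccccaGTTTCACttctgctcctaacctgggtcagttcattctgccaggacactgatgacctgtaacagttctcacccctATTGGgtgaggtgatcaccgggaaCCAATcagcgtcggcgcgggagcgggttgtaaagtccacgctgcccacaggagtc
H2-Q4 promoter: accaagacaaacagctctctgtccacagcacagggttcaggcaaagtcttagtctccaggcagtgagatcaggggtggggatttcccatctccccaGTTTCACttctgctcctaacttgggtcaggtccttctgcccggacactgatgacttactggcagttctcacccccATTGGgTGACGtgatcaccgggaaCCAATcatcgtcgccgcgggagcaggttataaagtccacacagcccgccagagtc
H2-K1 promoter: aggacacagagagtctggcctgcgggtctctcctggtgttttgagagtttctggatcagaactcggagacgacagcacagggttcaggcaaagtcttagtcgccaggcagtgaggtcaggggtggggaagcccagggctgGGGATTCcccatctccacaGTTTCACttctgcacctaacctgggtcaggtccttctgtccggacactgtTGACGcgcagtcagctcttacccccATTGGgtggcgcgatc
H2-Q10 promoter: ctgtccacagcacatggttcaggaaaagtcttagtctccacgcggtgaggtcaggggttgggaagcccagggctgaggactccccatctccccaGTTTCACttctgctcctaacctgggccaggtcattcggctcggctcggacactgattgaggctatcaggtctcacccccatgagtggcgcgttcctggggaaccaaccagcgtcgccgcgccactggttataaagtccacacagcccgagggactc
A window of this kind was at hand for 9 of the 10 genes, the exception being Tap2. The kappa B core, part of a site of NF-kappa B factors, was matched in 3 of these windows, those of H2-K1, H2-D1 and H2-Q6, against 2.56% of the windows of all 27025 genes in the table. The interferon response core was matched in 5 windows, those of H2-K1, H2-D1, H2-Q4, H2-Q6 and H2-Q10, against 2.22% of all windows. The CRE half-site was matched in 5, those of H2-K1, H2-D1, H2-Q4, B2m and Tap1, against 17.9% of all windows. It lay before the first Y box core in H2-K1, H2-D1 and B2m and after it in H2-Q4 and Tap1, so a match need not be the X2 box. The Y box core was matched in 8 of 9, against 34.5% of all windows, and H2-Q10 was the one without it. No match of one motif overlapped a match of another. Only exact matches to these 4 cores were sought, so a window without a match may still hold a variant of the site. The windows of H2-D1 and Tapbp lie within the genes as annotated by GENCODE, whose starts are further upstream, and that of H2-T23 does so in part. These heavy chain promoters share much of their sequence by descent.

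**Figure D1:**
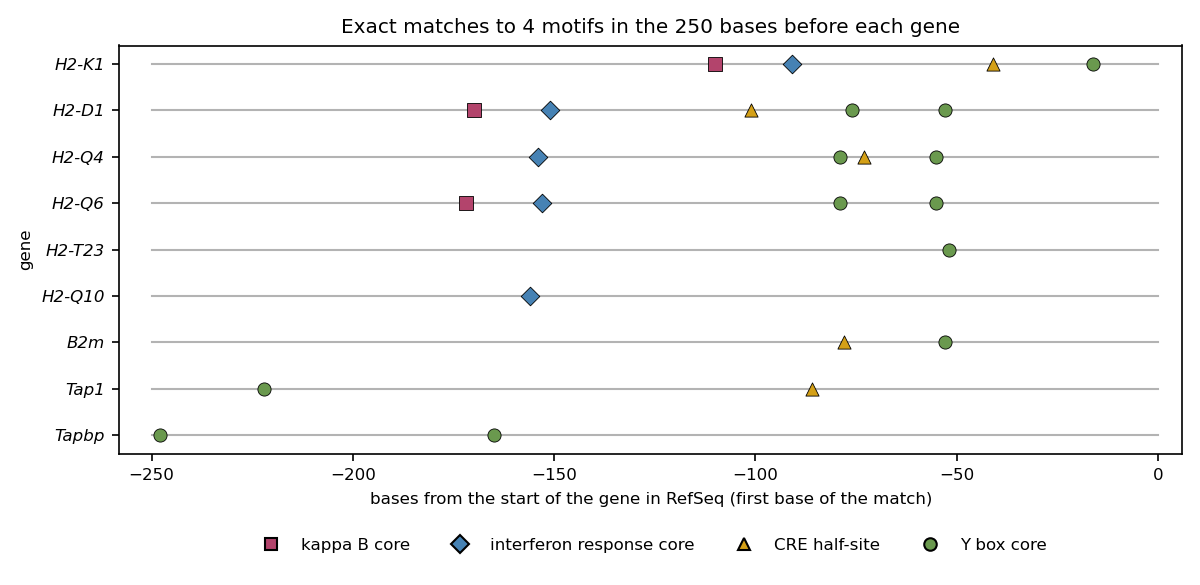
Positions of exact matches to 4 short motifs (symbols) in the 250 bases before the RefSeq start of 9 genes (one line per gene, x axis in bases from the start). Matches to the interferon response core lie between positions -156 and -151 in H2-D1, H2-Q4, H2-Q6 and H2-Q10 and nearer the start in H2-K1, and H2-Q10 has that match alone.

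Libraries held between 545171 and 2593200 mapped reads, and the shallowest library was Y2. Levels below are CPM (counts-per-million of the reads in tested genes, after scaling), with mean ± SD over n = 4 libraries. A floor of 3 reads corresponds to between 1.16 and 5.50 CPM of mapped reads, and all 10 genes lay above it in every library. Each of the 10 also passed the filter on low counts and was among the 7668 genes tested. The liver markers Alb, Apoa1, Ttr, Cyp2e1 and Serpina1c had reads in all 8 libraries, between 70873 and 101447 summed CPM in O-titled and between 79263 and 117567 in Y-titled libraries. In whole tissue, fewer cells of a type and less RNA per cell cannot be told apart.

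The set was dominated by B2m, H2-Q10 and H2-K1. B2m (ENSMUSG00000060802, chromosome 2 from 122147686 to 122153083 on mm10) had 5671, 1670, 3021 and 3692 reads in O1 to O4 and 3861, 1211, 2201 and 2530 reads in Y1 to Y4. Relative to the 6 heavy chain genes together, there were 0.602 ± 0.0439 B2m reads per heavy chain read in O-titled and 0.580 ± 0.0286 in Y-titled libraries, so the ratio of light to heavy chain RNA moved by less than its spread. Per kb of transcript, H2-Q10 had 1.31 ± 0.384 times the reads of H2-K1 in O-titled and 1.38 ± 0.205 times in Y-titled libraries. Without a correction for length, there were 1.44 ± 0.421 H2-Q10 reads per H2-K1 read in O-titled and 1.52 ± 0.225 in Y-titled libraries. In reads, H2-Q10 RNA was thus at or above that of H2-K1, the most abundant surface chain, in each library. This ratio ran from 1.00 in O4 to 1.98 in O2, and per kb it was 0.917 in O4. Summed over all libraries, the transporter genes had the fewest reads, 172 for Tap1 and 216 for Tap2, with H2-Q4 close at 254. In Y3 alone H2-Q4 was rarer, at 16 reads against 17 for Tap1 and 23 for Tap2. Tap1 was at 7 to 50 reads in O-titled and 6 to 28 in Y-titled libraries, and Tap2 at 14 to 53 reads in O-titled and 4 to 27 in Y-titled libraries.

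**Figure D2:**
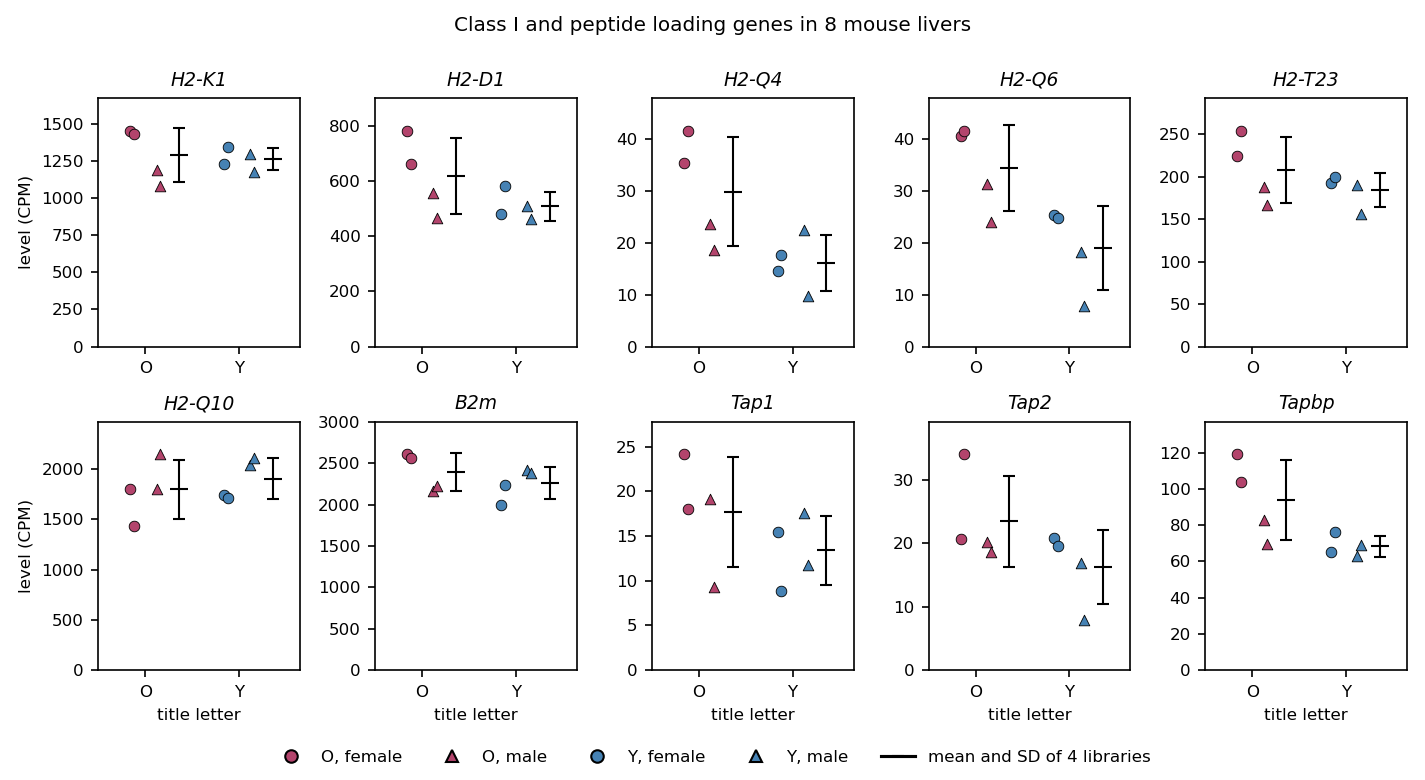
Level of each gene (y axis, CPM, each panel from 0) in the 8 libraries, O-titled left of Y-titled, with circles for females, triangles for males, and bars for the mean and SD of 4 libraries. The females O3 and O4 are the highest libraries for most genes, while the H2-Q10 panel has O4 lowest.

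The classical heavy chains did not pass the test between O-titled and Y-titled livers. H2-K1 (ENSMUSG00000061232, chromosome 17 from 33996017 to 34000347) was at 1187, 1084, 1454 and 1428 CPM in O1 to O4 and at 1293, 1176, 1230 and 1347 CPM in Y1 to Y4. The 2 O-titled females stood above all Y-titled libraries and the O-titled males at the low end of the Y-titled range or below it, and the means were close, 1288 ± 182 CPM against 1261 ± 74.3 CPM (log2 fold 0.02, SE 0.11, edgeR quasi-likelihood test, adjusted p = 0.968). H2-D1 (ENSMUSG00000073411, chromosome 17 from 35262730 to 35267499) was at 557, 464, 783 and 662 CPM in O-titled livers, against 511, 461, 480 and 582 CPM in Y-titled ones. O3 and O4 were again the highest and the sets overlapped (log2 fold 0.26, SE 0.12, adjusted p = 0.289). H2-D1 reads per H2-K1 read were 0.475 ± 0.0459 in O-titled and 0.402 ± 0.0199 in Y-titled libraries, with O2 at 0.429 below Y4 at 0.432.

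Among the nonclassical chains, H2-Q6 was the gene that passed in this comparison. H2-Q6 (ENSMUSG00000073409, chromosome 17 from 35424850 to 35430055), one of the Q region genes behind the Qa-2 antigen, had 82, 18, 47 and 60 reads in O1 to O4 and 29, 4, 28 and 28 reads in Y1 to Y4. In CPM this was 31.4, 24.02, 40.6 and 41.7 in O-titled and 18.2, 7.88, 25.4 and 24.8 in Y-titled libraries. The O-titled livers were higher within each sex, but O2, a male, lay below the Y-titled females (log2 fold 0.80, SE 0.20, adjusted p = 0.0278). The 4 reads of Y2 are close to the floor of 3.

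This call rests on few reads, and H2-Q6 closely resembles H2-Q7, another Q region gene. The coding sequences of H2-Q6 and H2-Q7 are identical at 95.4% of aligned bases, differ at 45 of 978, and share a run of 265 identical bases, so reads could be split between them, which was not tested. H2-Q7 had 268, 73, 118 and 152 reads in O-titled and 155, 18, 82 and 108 in Y-titled libraries. Its levels in CPM were higher in each O-titled library than in any Y-titled one, as for 4.15% of all genes, but it did not pass (log2 fold 0.36, adjusted p = 0.442). H2-Q6 took 19.8 to 28.5% of the reads of the pair in O-titled livers and 15.8 to 25.5% in Y-titled ones. With H2-Q6 and H2-Q7 summed to 1 feature, the log2 fold was 0.48 and the adjusted p 0.275. The call was also lost with DESeq2 (log2 fold 0.81, adjusted p = 0.103), without sex as a covariate (0.78, adjusted p = 0.150) and with all libraries thinned to the depth of Y2 (1.21, adjusted p = 0.136). Without O1, O4, Y2, Y3 or Y4 in turn the log2 fold was 0.68 to 0.82 and the adjusted p 0.0614 to 0.122.

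H2-Q4 (ENSMUSG00000035929, chromosome 17 from 35379617 to 35385290), a second nonclassical gene, had 62, 14, 41 and 60 reads in O-titled and 36, 5, 16 and 20 reads in Y-titled libraries. Its coding sequence is identical to that of H2-K1 at 90.6% of aligned bases and to that of H2-D1 at 90.3%. Whether some of its few reads came from these more abundant genes was not tested. The levels of H2-Q4 were 23.7, 18.7, 35.4 and 41.7 CPM in O1 to O4 and 22.6, 9.85, 14.5 and 17.7 CPM in Y1 to Y4. The O-titled females stood clear of all other libraries, while O2 lay below Y1 (log2 fold 0.78, SE 0.25, adjusted p = 0.0876). It passed without Y1 (log2 fold 1.24, adjusted p = 0.00757) and without a filter on low counts (0.76, adjusted p = 0.0266). H2-T23 (ENSMUSG00000067212, chromosome 17 from 36029773 to 36032855) encodes the Qa-1 heavy chain, which presents leader peptides of other class I chains to an inhibitory receptor of natural killer cells. It was at 208 ± 38.8 CPM in O-titled livers, against 185 ± 19.8 CPM in Y-titled ones, which did not pass (log2 fold 0.16, SE 0.12, adjusted p = 0.573).

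H2-Q10 (ENSMUSG00000067235, chromosome 17 from 35470089 to 35474563) was the one gene of the 10 with a fold change below 0. It was at 1804, 2150, 1805 and 1435 CPM in O1 to O4 and at 2045, 2111, 1747 and 1712 CPM in Y1 to Y4. O4 was the lowest of all libraries and O2 the highest, so the O-titled set spanned the Y-titled one (log2 fold -0.08, SE 0.11, adjusted p = 0.796). B2m was at 2393 ± 227 CPM in O-titled livers, against 2262 ± 192 CPM in Y-titled ones, and did not pass either (log2 fold 0.08, SE 0.11, adjusted p = 0.809).

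None of the loading genes passed over all 8 libraries. Tapbp (ENSMUSG00000024308, chromosome 17 from 33915899 to 33929292) was at 83.0, 69.4, 119 and 104 CPM in O1 to O4 and at 62.7, 68.9, 65.4 and 76.2 CPM in Y1 to Y4. Again O3 and O4 stood highest, and O2 lay within the Y-titled range (log2 fold 0.46, SE 0.14, adjusted p = 0.0754). It passed without O2 (log2 fold 0.53, adjusted p = 0.0484). Tap1 (ENSMUSG00000037321, chromosome 17 from 34187553 to 34197225) was at 17.7 ± 6.17 CPM in O-titled livers, against 13.4 ± 3.86 CPM in Y-titled ones (log2 fold 0.40, SE 0.28, adjusted p = 0.545). Tap2 (ENSMUSG00000024339, chromosome 17 from 34203527 to 34216321) was at 23.4 ± 7.14 CPM in O-titled livers, against 16.3 ± 5.85 CPM in Y-titled ones (log2 fold 0.46, SE 0.24, adjusted p = 0.358). Thinned to the depth of Y2, the log2 folds were 0.84 for Tap1 and 2.06 for Tap2, neither called, so these values are loose at 4 to 53 reads per library.

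By title and sex, O-titled females had the highest mean in 9 of the 10 genes, where 27.8% of all tested genes did, and the order below them differed from gene to gene. For B2m the means were 2588 CPM in O-titled females, 2199 in O-titled males, 2120 in Y-titled females and 2403 in Y-titled males. In single libraries O-titled males (2168 and 2229 CPM) and Y-titled females (1999 and 2241 CPM) overlapped, and Y-titled males (2422 and 2385 CPM) lay between them and the O-titled females (2610 and 2566 CPM). For H2-T23 they were 239, 177, 196 and 173 CPM in the same order, and for Tapbp 111, 76.2, 70.8 and 65.8 CPM. H2-Q10 was highest in Y-titled males, at 1620, 1977, 1729 and 2078 CPM in that order.

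Over the 10 genes, 1 was called higher in O-titled livers and 0 lower at an adjusted p of 0.05, where 4.06% of all 7668 genes were called in either direction and 2.18% were called higher. At an unadjusted p under 0.05 there were 4 of 10, against 16.1% of all genes. The median log2 fold was 0.33 over the 10 genes and 0.01 over all genes tested. None of the 10 had all O-titled libraries above all Y-titled ones, a pattern that 4.15% of all genes showed.

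In females alone, the same comparison gave calls for H2-Q4 and Tapbp and none for H2-Q6. H2-Q4 rose in O-titled females, at 35.4 and 41.7 CPM against 14.5 and 17.7 CPM in Y-titled females (log2 fold 1.26, SE 0.31, edgeR adjusted p = 0.0175). Tapbp rose as well, at 119 and 104 CPM in O-titled against 65.4 and 76.2 CPM in Y-titled females (log2 fold 0.65, SE 0.18, adjusted p = 0.0437). The other 8 genes did not pass, among them H2-D1 (log2 fold 0.44, adjusted p = 0.117), H2-Q6 (0.71, adjusted p = 0.169), Tap1 (0.78, adjusted p = 0.334) and B2m (0.29, adjusted p = 0.311). These 2 of 10 genes called higher compare with 2.53% of all genes called higher in females, and the median log2 fold was 0.45 against 0.00 over all genes. In 8 of the 10 genes both O-titled females lay above both Y-titled females, against 22.8% of all genes, the exceptions being H2-Q10 and Tap2.

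With 2 animals per set, these calls, though not the size of the folds, depended on single libraries. H2-Q4 lost its call in females without O4, Y3 or Y4, at adjusted p of 0.108, 0.193 and 0.0676, and its log2 fold ranged from 1.11 to 1.40 over the libraries left out. Tapbp lost its call without O3, O4, Y2, Y3 or Y4 and with the replicate number as a block, at adjusted p between 0.0534 and 0.405, and its log2 fold ranged from 0.53 to 0.76 over the libraries left out. Y2 is a male library.

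In males, 0 of the 10 genes were called, where 1.40% of all genes were, and 1 had an unadjusted p under 0.05, against 9.30% of all genes. That gene was H2-Q6, at 31.4 and 24.02 CPM in O-titled and 18.2 and 7.88 CPM in Y-titled males (log2 fold 0.92, SE 0.32, adjusted p = 0.229). Its log2 fold was 1.87 without Y1, and that of Tap2 in males, 0.46, was 1.32 without Y1 and 0.21 without Y2. limma voom also called 0 of the 10 in males. H2-K1 and B2m, which had fold changes above 0 in females, had log2 folds of -0.12 and -0.13 in males. Both O-titled males lay above both Y-titled males in 3 of the 10 genes, H2-Q6, Tap2 and Tapbp, against 20.4% of all genes, and the median log2 fold was 0.05.

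The difference between the sexes was itself tested, and 0 of the 10 genes passed, where 0.339% of all genes did. By limma voom 0 of 10 passed as well, and 2 had an unadjusted p under 0.05 with edgeR. These 2, where 8.05% of all genes reached as much, were H2-Q4, whose log2 fold was larger in females by 1.03 (SE 0.45, adjusted p = 0.572), and B2m, larger in females by 0.42 (SE 0.19, adjusted p = 0.594). Without Y1 the difference for H2-Q4 was 0.09. A larger response in females than in males is therefore not shown for any of the 10.

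**Figure D3:**
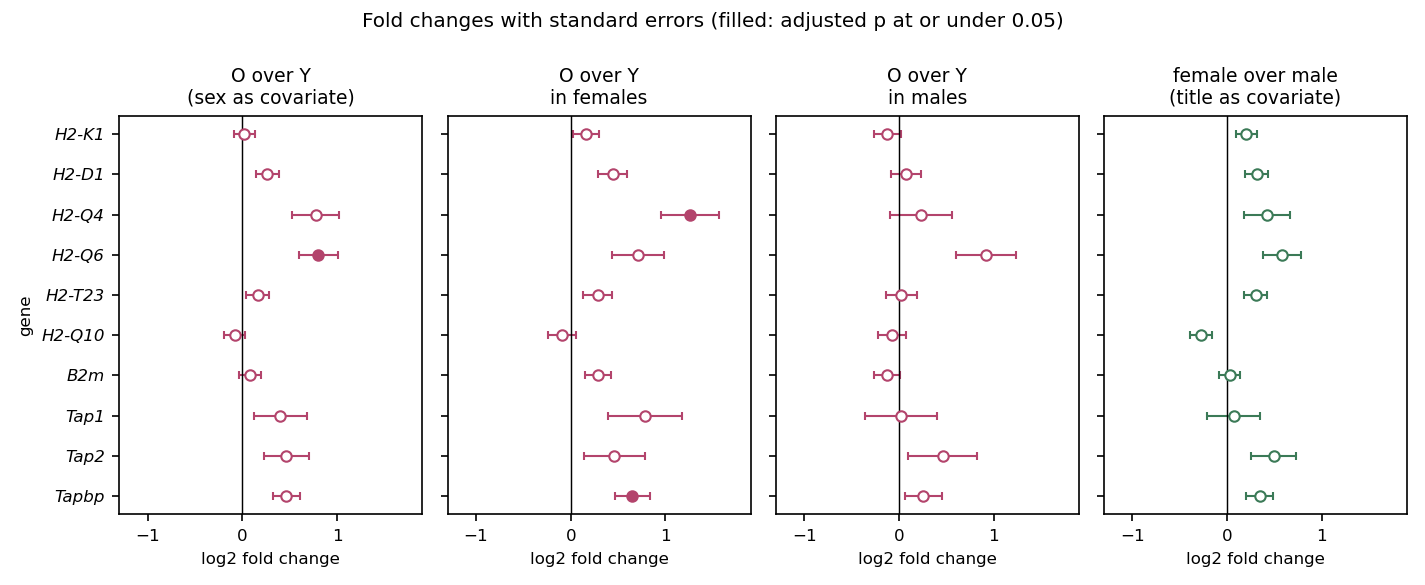
log2 fold changes (x axis) with standard errors for each gene, for O-titled over Y-titled livers in all libraries, in females and in males, and for females over males, with filled points at an adjusted p of 0.05 or less. H2-Q6 is filled over all libraries and H2-Q4 and Tapbp in females, and H2-Q10 stands apart on the left in the panel of females over males.

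Between females and males, over both titles, 0 of the 10 genes passed with edgeR, DESeq2 or limma voom, where edgeR called 3.00% of all genes. At an unadjusted p under 0.05 there were 6 of 10, against 12.5% of all genes, and the median log2 fold of female over male was 0.31 against 0.00 over all genes. Female livers had 224, 254, 193 and 200 CPM of H2-T23, against 188, 167, 190 and 156 CPM in the males. It was the one gene with all females above all males, as 3.17% of all genes were (log2 fold 0.30, SE 0.12, adjusted p = 0.249). H2-D1 was at 627 ± 128 CPM in females and 498 ± 45.4 CPM in males (log2 fold 0.31, adjusted p = 0.235), H2-Q6 at 33.1 ± 9.28 CPM and 20.4 ± 9.91 CPM (0.58, adjusted p = 0.160), and Tapbp at 91.1 ± 24.7 CPM and 71.0 ± 8.54 CPM (0.34, adjusted p = 0.289).

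H2-Q10 ran the other way, at 1675 ± 164 CPM in females and 2028 ± 155 CPM in males (log2 fold -0.28, SE 0.11, edgeR adjusted p = 0.271). O3, a female, lay at 1805 CPM and O1, a male, at 1804 CPM, so the sexes touched. Set against H2-K1 within a library, H2-Q10 gave 1.24, 1.00, 1.42 and 1.27 reads per H2-K1 read in females O3, O4, Y3 and Y4 and 1.52, 1.98, 1.58 and 1.80 in males O1, O2, Y1 and Y2. Every female lay below every male in this ratio, which was formed after the values were seen and was not tested. As a share of the reads of the 6 heavy chain genes, H2-Q10 made up 41.6, 37.1, 47.3 and 44.1% in females and 47.6, 55.0, 50.1 and 53.8% in males. A lower level in females was not confined to H2-Q10. Azgp1, which encodes a secreted class I-like protein, was at 1114 ± 34.0 CPM in females and 1262 ± 71.3 CPM in males. For Azgp1 all females lay below all males (log2 fold -0.18, edgeR adjusted p = 0.534). Of the other class I and class I-like genes tested, H2-Q1, H2-Q7, H2-T22, Cd1d1, Hfe and Fcgrt had higher means in females. Of 5 hepatocyte markers, 1 was called between the sexes, Serpina1c, which was lower in females.

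**Figure D4:**
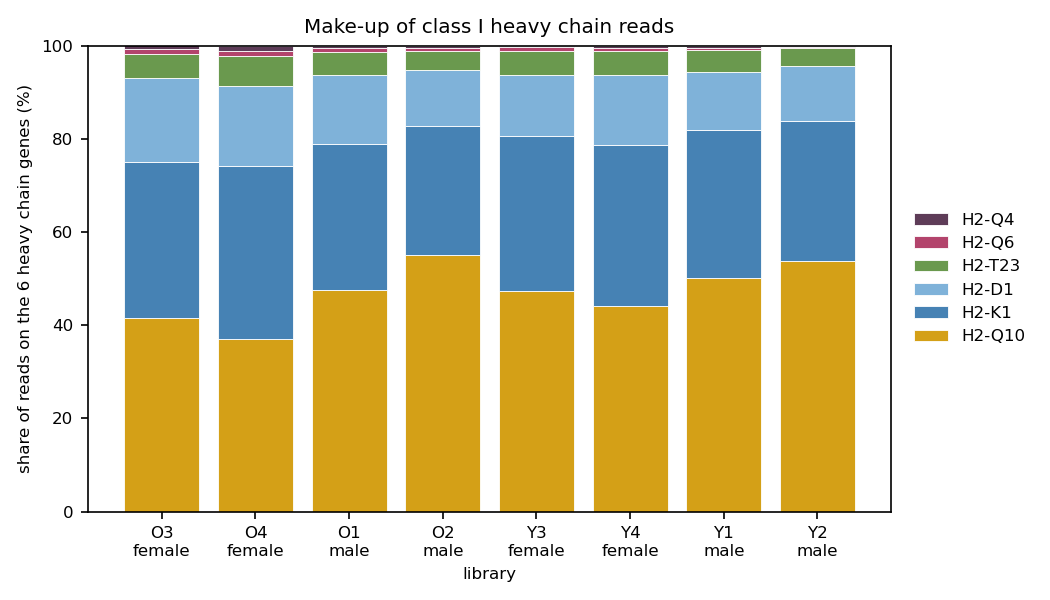
Share of the reads on the 6 heavy chain genes taken by each gene (stacked bars, y axis from 0 to 100%) in every library, O-titled left of Y-titled and females left of males within each. H2-Q10 takes between 37.1% (O4) and 55.0% (O2), H2-K1 most of the rest, and H2-Q4 and H2-Q6 at most 1.08% each.

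Over the 8 libraries the other 9 genes had a shared pattern, and that of H2-Q10 was the opposite. Each gene's log2 level was correlated with the mean of the standardised levels of the remaining genes, and Pearson's r was -0.72 for H2-Q10 and between 0.57 (B2m) and 0.93 (H2-Q4) for the rest. These are descriptions over 8 libraries that share scaling, sex and title. The mean standardised level of the 10 genes was highest in O3 (1.09 SD) and O4 (0.90 SD) and lowest in Y2 (-0.88 SD). Outside the gene lists, the 5 tested genes whose level followed this mean most closely were Ctss (r = 0.98), Nol11 (0.97), Gm14296 (0.94), Kng2 (0.94) and 1110012L19Rik (0.94). Ctss encodes cathepsin S, the protease of antigen-presenting cells that trims the class II invariant chain. It was at 60.0, 38.7, 100.2 and 86.9 CPM in O1 to O4 and 45.2, 33.5, 40.9 and 51.4 CPM in Y1 to Y4, with O3 and O4 highest (log2 fold 0.71, SE 0.18). It was picked for following a mean that is highest in O3 and O4, so this difference is a description and no test is given.

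**Figure D5:**
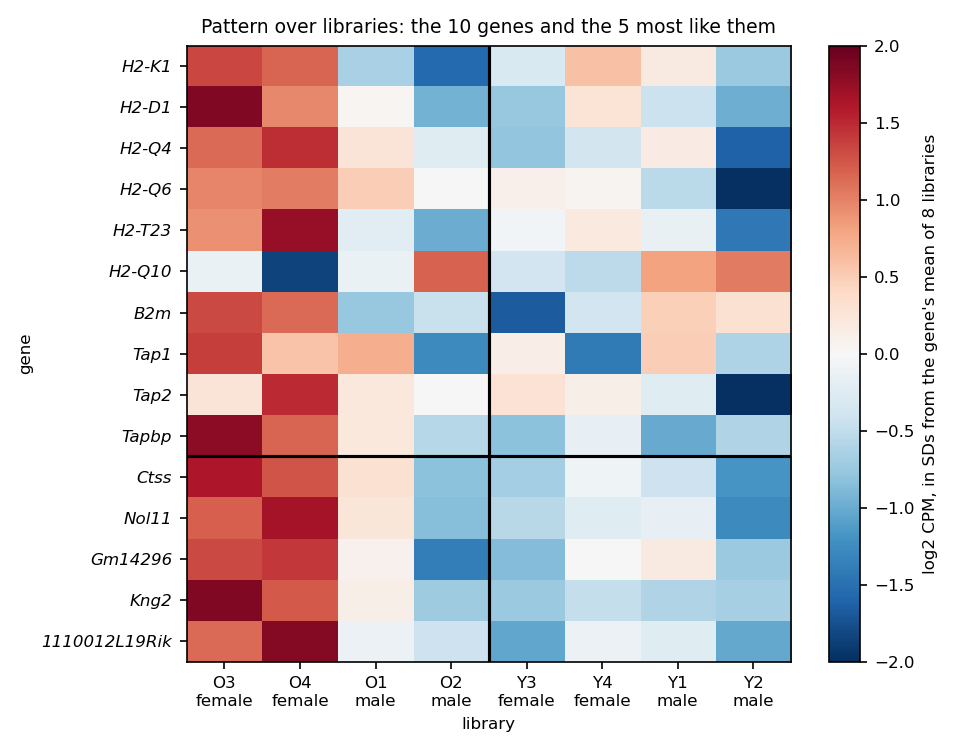
Level of the 10 genes (above the line) and of the 5 genes most like them (below it) in every library, as log2 CPM in SDs from the gene's own mean of 8 libraries, O-titled left of Y-titled. O3 and O4 are red in nearly every row, and the H2-Q10 row runs opposite, with O4 lowest and O2 highest.

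Genes that supply and fold the cargo moved in both directions. Of 14 genes for peptide supply and loading, all tested, 2 were higher and 1 lower in O-titled livers, where 4.06% of all genes were called, with a median log2 fold of -0.12. At an unadjusted p under 0.05 there were 9 of 14, against 16.1% of all genes. Psmb10, a catalytic subunit of the immunoproteasome, was at 63.5, 52.0, 105 and 97.3 CPM in O-titled livers, against 50.2, 41.4, 50.9 and 60.2 CPM in Y-titled ones (log2 fold 0.62, adjusted p = 0.0255). Psme1, a subunit of the activator that docks on the proteasome, was at 153 ± 31.1 CPM in O-titled livers, against 105 ± 12.2 CPM in Y-titled ones (log2 fold 0.54, adjusted p = 0.0403). Hspa5, the BiP chaperone of the endoplasmic reticulum, fell to 346 ± 40.3 CPM in O-titled livers, against 582 ± 162 CPM in Y-titled livers (log2 fold -0.71, adjusted p = 0.00277). In females 3 of the 14 were higher, where 2.53% of all genes were called higher. These were Psmb8 (log2 fold 0.75, adjusted p = 0.0437), Psmb10 (0.86, adjusted p = 0.00983) and Psme1 (0.88, adjusted p = 0.00235). Hspa5 (-1.01, adjusted p = 1.71e-04) and the translocon subunit Sec61a1 (-0.66, adjusted p = 0.0320) were lower. The share of all genes called lower in females is not given here, so these calls have no background beside them. The names for females were chosen after their values were seen.

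Between the sexes, 2 of these 14 genes were higher in females and 0 lower, where 3.00% of all genes were called in either direction. Psmb8, a catalytic subunit of the immunoproteasome, was at 70.4 ± 22.5 CPM in females and 40.8 ± 7.42 CPM in males (log2 fold 0.72, adjusted p = 0.0363). Psme2, the partner of Psme1, was at 162 ± 27.2 CPM in females and 110 ± 6.69 CPM in males (log2 fold 0.54, adjusted p = 0.0148). Among 9 tested regulators of class I genes, 0 passed between O-titled and Y-titled livers, where 4.06% of all genes did. At an unadjusted p under 0.05 there were 0 of 9, against 16.1% of all genes. In females over males 1 was higher and 1 lower, where 3.00% of all genes were called. Irf1, an activator of class I and interferon genes, was at 29.5 ± 3.99 CPM in females and 18.3 ± 2.27 CPM in males (log2 fold 0.75, adjusted p = 0.0414), and Irf2, its antagonist at the same sites, at 29.5 ± 1.62 CPM in females and 45.9 ± 8.59 CPM in males (log2 fold -0.65, adjusted p = 0.0392).

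Interferon-stimulated genes, the usual company of class I genes, gave 1 call between the titles. Of 15 tested, with a median log2 fold of -0.15, 3 had an unadjusted p under 0.05, against 16.1% of all genes. After adjustment 0 were higher and 1 was lower in O-titled livers, where 4.06% of all genes were called. That gene was Iigp1, an interferon-induced GTPase, at 186 ± 42 CPM in O-titled livers, against 274 ± 45.7 CPM in Y-titled ones (log2 fold -0.56, adjusted p = 0.0151). Between the sexes 2 of 15 were higher in females, the GTPase genes Gbp3 (log2 fold 1.56, adjusted p = 0.00530) and Irgm2 (0.88, adjusted p = 0.0209). The median log2 fold of the 15 genes was 0.81 for females over males, and 12 of 15 had an unadjusted p under 0.05, where 3.00% of all genes were called and 12.5% had such a p.

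Of 22 other class I and class I-like genes listed for comparison, 15 were in the count tables, 13 had reads and 7 were tested. H2-Q8 and H2-Q9, also of the Q region, were not in the count tables. Between the titles 0 of the 7 passed, where 4.06% of all genes did. At an unadjusted p under 0.05 there were 2 of 7, against 16.1% of all genes. H2-T22, a nonclassical chain, was at 121 ± 24.7 CPM in O-titled livers, against 99.6 ± 13.4 CPM in Y-titled ones, H2-Q1 at 21.8 ± 3.02 and 20.4 ± 8.15 CPM, and Hfe, the iron-sensing class I-like protein, at 48.2 ± 5.29 and 36.8 ± 6.87 CPM. Fcgrt, the neonatal Fc receptor, was at 149 ± 14.8 CPM in O-titled livers, against 168 ± 2.29 CPM in Y-titled ones, and Azgp1, a secreted class I-like protein, at 1154 ± 67.1 and 1222 ± 116 CPM. Cd1d1, which presents lipids to natural killer T cells, passed between the sexes, at 199.8 ± 40.7 CPM in females and 128 ± 21.7 CPM in males (log2 fold 0.65, adjusted p = 0.0282). H2-M3, Mr1, H2-T10, H2-T24, H2-Q2 and H2-M2 had 0 to 14 reads per library and were not tested.

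Markers of cells that carry much class I differed between libraries too. The 10 markers of Kupffer cells and macrophages summed to 1451, 553, 1490 and 1119 CPM in O1 to O4 and to 737, 668, 776 and 788 CPM in Y1 to Y4. O2, the O-titled library with the lowest levels of most class I genes, was thus also the lowest for these markers, and the other O-titled libraries were above all Y-titled ones. Of these 10 markers 0 passed with edgeR, with a median log2 fold of 0.48. At an unadjusted p under 0.05 there were 3 of 10, against 16.1% of all genes. The share called over all genes, for these and the counts that follow, was 4.06% in either direction and 2.18% higher. An unadjusted p under 0.05 is likewise to be set against 16.1% of all genes. Of 5 tested class II genes, with a median log2 fold of 0.95, 1 was higher and 3 had an unadjusted p under 0.05. The gene called was H2-Eb1, at 41.3, 13.3, 49.3 and 50.0 CPM in O-titled livers, against 11.3, 13.8, 19.1 and 30.1 CPM in Y-titled ones (log2 fold 1.17, adjusted p = 0.0243). Of 8 endothelial markers, with a median log2 fold of -0.06, 1 was higher, Fcgr2b (log2 fold 0.62, adjusted p = 0.0394), and 2 had an unadjusted p under 0.05. Of 5 tested stellate cell markers, with a median of 0.59, 1 was higher, Dcn (0.59, adjusted p = 0.00744), and 4 had an unadjusted p under 0.05. Of 5 hepatocyte markers, with a median of -0.36, 1 was lower, Serpina1c (log2 fold -0.40, adjusted p = 0.0485), and 2 had an unadjusted p under 0.05. Serpina1c was also lower in females than in males (log2 fold -0.57, adjusted p = 0.00417), where 3.00% of all genes were called between the sexes. The markers of T and natural killer cells summed to 5.34 to 33.7 CPM in O-titled livers, against 6.27 to 11.8 CPM in Y-titled ones, and those of B cells to 7.65 to 12.1 and 5.32 to 7.88 CPM, too few for a test, and every marker of these lists had reads in at least 2 libraries. Ptprc, found on all leukocytes, was at 9.94, 0, 24.2 and 13.9 CPM in O1 to O4 and 5.02, 5.91, 1.82 and 6.20 CPM in Y1 to Y4, with O2 lowest once more, and did not pass. Neither did 1 tested marker of cholangiocytes and 1 of neutrophils. The part of these cells in the class I values was not tested.

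No change was called in the transcripts in use within the class I genes, by a test that was conservative here. Of 1555 genes with enough reads on more than 1 transcript, 0 were called between the titles by edgeR's transcript usage test. At an unadjusted p under 0.05 there were 10, or 0.643%. With no change at all, a share of about 0.05 would be expected, so 0 calls do not show unchanged usage in these 1555 genes. H2-K1, H2-D1, H2-Q10 and Tapbp were among them, each at an adjusted p of 1.00. The main H2-K1 transcript, ENSMUST00000025181, took 54.4 ± 3.35% of the gene's reads in O-titled and 54.5 ± 1.60% in Y-titled libraries. H2-Q10 was split between ENSMUST00000174525, at 52.9 ± 2.39% in O-titled and 52.5 ± 4.38% in Y-titled libraries, and ENSMUST00000068291 with the rest. The stop codon in the fifth exon was looked at in ENSMUST00000068291 only. For Tapbp the larger share went to ENSMUST00000234247, at 53.3 ± 4.43% in O-titled and 56.1 ± 3.03% in Y-titled libraries.

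For H2-D1 the shares cannot be read as isoforms. ENSMUST00000172503, annotated with 406 bases, was given 59.6% of the reads of the gene, but these reads averaged 1421 bases, more than the transcript itself. In the other genes of the set, reads were on average shorter than annotated. Their mean length was 91.4% of the annotated length for B2m, 82.3% for H2-K1 and 71.0% for H2-Q10, and 59.7% for Tap1 and 47.3% for Tap2, the longest of the 10. In O-titled and Y-titled libraries the mean H2-K1 read had 1300 and 1333 bases and the mean B2m read 783 and 791 bases.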

How the data were processed

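The authors' deposited tables hold whole-number counts of direct RNA reads per transcript, 1 table per library, without any scaling; within a library they add up to the mapped reads that the file states. Per the labels' protocols, poly(A) RNA carried a ligated 5′ adapter and was read on MinION R9.4.1 flow cells. Per the submitters' processing notes, minimap2 2.24, mm10 and DESeq2 were used, in roles not given there. How reads were counted, and what was done with those matching several genes, is not given in the sources used here, so values of near-identical class I genes are uncertain where reads could be split.

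Counts were summed to genes, and gene positions came from GENCODE M21 on mm10. The main test was edgeR 4.0.16 (R 4.3.3): filterByExpr at a minimum count of 10 by the 4 groups of title and sex, TMM scaling, and the quasi-likelihood test (robust) with Benjamini-Hochberg adjustment over 7668 genes at 0.05. Title and sex were terms of the main fit, and a fit with 4 groups gave the differences within each sex and their difference. Adjusted p values without a named tool come from this test. The SE of a log2 fold was its absolute value over the square root of the test's F statistic, a rough figure where the fold is very small. Transcript usage was tested with diffSpliceDGE of edgeR. Alternatives used DESeq2 1.42.0 and limma 3.58.1. The main procedure was tested on simulated data. Genes of the lists were named where they passed between the titles or the sexes, beside all 10 members, every other class I gene with reads, and the 5 genes most like the members by Pearson's r of log2 CPM (prior count 2). The members and lists were chosen with earlier results of these data known. Replicates are separate animals, by 8 animal labels, and no pair of 1 title and sex looked like a repeat (chi-square per degree of freedom 3.26 to 8.35). Depth ranged from 545171 to 2593200 mapped reads. Floors cover counting error only.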

Additional observations from a re-analysis of the deposited data

Results flagged for a closer look

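Tap2 was at 34.1 CPM in O4, far above the other 3 O-titled libraries, with a gap of 0.866 of the range of the 4 libraries, and above the other 3 female libraries, with a gap of 0.904 of their range. Both exceed Dixon's value of 0.829 for 4 samples. They were the 2 flags among 40 sets of 4 libraries looked at, of which chance flags about 1 in 20. The 49 Tap2 reads of O4 compare with 14 to 53 reads in all O-titled libraries.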

How the results depend on the processing

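The count of class I members called between the titles, 1 by the main test, was 0 with DESeq2, without the sex covariate, with libraries thinned to the shallowest, and with H2-Q6 and H2-Q7 summed, and 2 without a filter on low counts. In females it was 2 and fell to 1 with the replicate block. Leaving out single libraries gave 0 to 2 members in both of these comparisons. The cause of these changes was not tested. Over all genes, 311 were called between the titles, against 600 without the filter, 145 without the sex covariate, 101 after thinning and 229 with the replicate block. For females over males 230 were called, against 401 without the filter, 68 without the title covariate and 81 after thinning. Without the filter 211 genes were called in males (main 107) and 100 for the difference between the sexes (main 26). Leaving out single libraries gave 186 to 339 genes between the titles (lowest without Y4), 149 to 238 between the sexes (lowest without Y1), 40 to 145 in males (lowest without O1), 158 to 417 in females (lowest without Y3) and 9 to 50 for the difference (lowest without O1, highest without O4). Fold changes of some members changed sign in some of these fits, all uncalled. Between the titles H2-K1 ranged from -0.046 to 0.0759 and B2m from -0.0081 to 0.1304. Between the sexes B2m ranged from -0.0274 to 0.1021 and Tap1 from -0.11 to 0.30, and Tap2, at 0.49 in the full data, was at -0.52 after thinning. In females H2-Q10 ranged from -0.277 to 0.0561. In males H2-D1 ranged from -0.0673 to 0.1927, H2-Q4 from -0.0404 to 1.16, H2-Q10 from -0.2066 to 0.0497, H2-T23 from -0.10 to 0.20 and Tap1 from -0.76 to 0.45. For the difference between the sexes H2-Q6 ranged from -1.16 to 0.0571, H2-Q10 from -0.20 to 0.13 and Tap2 from -0.86 to 0.30, and Tap2 was at 0.0020, 0.0103 and 0.0150 with DESeq2 size factors, limma voom and no filter. Filtering by the 2 title groups, chosen after seeing the data, gave 271 genes between the titles and kept the counts of members called. The replicate numbers did not pair the animals beyond their sex: within a sex, deviations of same-numbered libraries correlated at -0.08 and -0.03. H2-Q6 kept its call with the replicate block (adjusted p = 0.0422) and with DESeq2 size factors, limma voom and no filter. Transcript usage gave 0 genes in each alternative. Tap1, Tap2, H2-Q4 and H2-Q6 were read 4 to 82 times per library, so relative counting error is largest there. A group left with 1 library was assumed to vary like the others.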
